A study of Mus musculus with 6 samples.

Results

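The transcripts of 7 subunits of the GABA-A receptor were followed in the hippocampus of Phf8 knockout (KO) mice and their wild-type (WT) littermates. The members are Gabra2, Gabra3, Gabra4, Gabra5, Gabrb1, Gabrb2 and Gabrd, and every probe set that a gene table assigns to a single one of these symbols was taken, which gave 21 of the 45037 probe sets of the table and 7 of its 18193 named genes. A probe set is a group of short oligonucleotides on an Affymetrix array that report together on a transcript. Total RNA of whole hippocampus from 3 KO and 3 WT samples was hybridised, 1 array per sample, and the values are log2 MAS5 signals. The methods can be read to mean that several mice made up a sample, so p-values below measure only the spread between these arrays, which may be partly technical. KO animals were hemizygous Phf8 -/Y males. Their allele was made in embryonic stem cells of another strain before backcrossing, lacks exons that encode the demethylase core, and was recombined by EIIa-Cre, a transgene active in the early embryo, so the deletion is not limited to neurons. WT males came from the same litters. The labels give an age of 10 weeks and a C57BL/6 background for both groups.

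GABA-A receptors are chloride channels that open when they bind GABA, the main inhibitory transmitter of the adult brain. Each channel is a ring of subunits, usually alpha and beta subunits with either a gamma or a delta subunit. The alpha2 and alpha3 subunits (Gabra2, Gabra3) typically sit with a gamma subunit at synapses, where they carry fast inhibition, whereas the alpha4, alpha5 and delta subunits (Gabra4, Gabra5, Gabrd) are known mainly from receptors outside the synapse that carry a steady, tonic current. In the hippocampus alpha5 is best known from pyramidal cells, and delta with alpha4 from granule cells of the dentate gyrus. Delta and alpha4 are also plentiful in the thalamus, which lies beside the hippocampus. The beta1 and beta2 subunits (Gabrb1, Gabrb2) are listed with the synaptic members here, although beta subunits take part in both kinds of receptor. PHF8 is an X-linked histone demethylase with a PHD finger that reads a methyl mark common at active, CpG-rich promoters.

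The promoter sequences of the members differed in this respect. RefSeq windows of 300 bases (250 before and 50 after a start, assembly GRCm38.p6) were matched for 6 of the 7 members, 10 windows in all, and Gabrd was not matched. Among 32851 windows of all genes, the median held 7 CpG dinucleotides (the letters CG, which read the same on both strands), and 94.6% held at least 1. Gabra2 held 25 CpG and a GC content of 70.0%, which is more CpG than 81.6% of all windows held. Gabra4 held 12 and Gabra5 13, the windows of Gabrb1 held 25 and 9, and those of Gabrb2 held 11, 9 and 9. Gabra3, which lies on chromosome X as Phf8 does, held 0 in both of its windows, which overlap. The letters TATAAA, on either strand, occurred once in the stretch that both Gabra3 windows share and in 1 window of Gabrb2, against 13.6% of all windows. Gabra4 and Gabrb1 start close to each other on opposite strands of chromosome 5, with windows at chr5:71658259-71658558 (minus strand) and chr5:71657671-71657970 (plus strand). The bases upstream of Gabra2 (chr5:71095850-71096099, minus strand) and of Gabra3 (chrX:72656920-72657169, minus strand) are shown because Gabra2, with a Gabrb1 window, had the most CpG of the members and Gabra3 the fewest and because Gabra3 is the member with the smallest p-value below. Capitals mark CpG, and a match is a description of the letters, not of PHF8 binding.
Gabra2: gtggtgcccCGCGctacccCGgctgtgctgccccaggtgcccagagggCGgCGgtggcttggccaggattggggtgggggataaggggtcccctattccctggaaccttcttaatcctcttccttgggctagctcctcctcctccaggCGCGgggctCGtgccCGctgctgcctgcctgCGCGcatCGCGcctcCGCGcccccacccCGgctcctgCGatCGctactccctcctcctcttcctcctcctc
Gabra3: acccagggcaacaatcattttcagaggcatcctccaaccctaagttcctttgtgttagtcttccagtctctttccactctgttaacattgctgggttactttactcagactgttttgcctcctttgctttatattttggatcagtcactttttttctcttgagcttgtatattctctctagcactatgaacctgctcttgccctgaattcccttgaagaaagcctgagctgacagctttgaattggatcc

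One library, KO 3, stood apart from the other arrays. KO 3 correlated with the other arrays at r = 0.92 to 0.94 across all genes, which are not independent replicates, whereas the other 5 arrays correlated at 0.976 to 0.987. In KO 3 the 10 measured thalamus markers of 12 listed (among them Tcf7l2, Slc17a6 and Zic1) lay at a median of 3.03 above their WT mean on the log2 scale, against 0.34 in KO 1 and 0.17 in KO 2 and -0.13 to 0.17 in the WT arrays. Their summed linear signal was 38570 in KO 3, 7085 and 7437 in the other KO arrays, and 5313 to 6014 in the WT arrays, and none of them was at 0. The 6 measured CA1 pyramidal cell markers had a median of -0.95 in KO 3, against 0.07 and 0.08 in the other KO arrays and -0.02 to 0.08 in the WT arrays. Single CA1 markers ran from -2.56 (Ccn3) to 0.70 (Wfs1) in KO 3, and the 5 measured CA3 markers had a median of 0.22. The striatum and cortex list had a median of 1.05 in KO 3, 0.13 and 0.19 in the other KO arrays and -0.26 to 0.17 in the WT arrays. Its genes ran from -1.58 (Fezf2) to 2.49 (Drd1) in KO 3. The choroid plexus list lay at -1.82 in KO 3 but also varied among the others, at 1.30 in KO 1, 0.12 in KO 2 and -1.02 to 0.91 in the WT arrays. All 8 measured dentate granule cell markers were lower on average in KO, with medians of -0.41 to -0.21 in the KO arrays and -0.17 to 0.14 in the WT arrays, none past the adjusted threshold in the fit across genes. The part of these differences in any subunit value was not tested. Values without KO 3 are given where that array moved a difference by more than 1.5 times or turned its sign. Phf8 itself (1460398_at) read 8.23, 8.55 and 7.99 on the KO arrays and 9.90, 9.66 and 9.73 on the WT arrays, a difference of -1.51 ± 0.18 (SE) with an adjusted p of 0.124 in limma. Its other 2 probe sets did not pass the filter on dim signals.

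**Figure D1:**
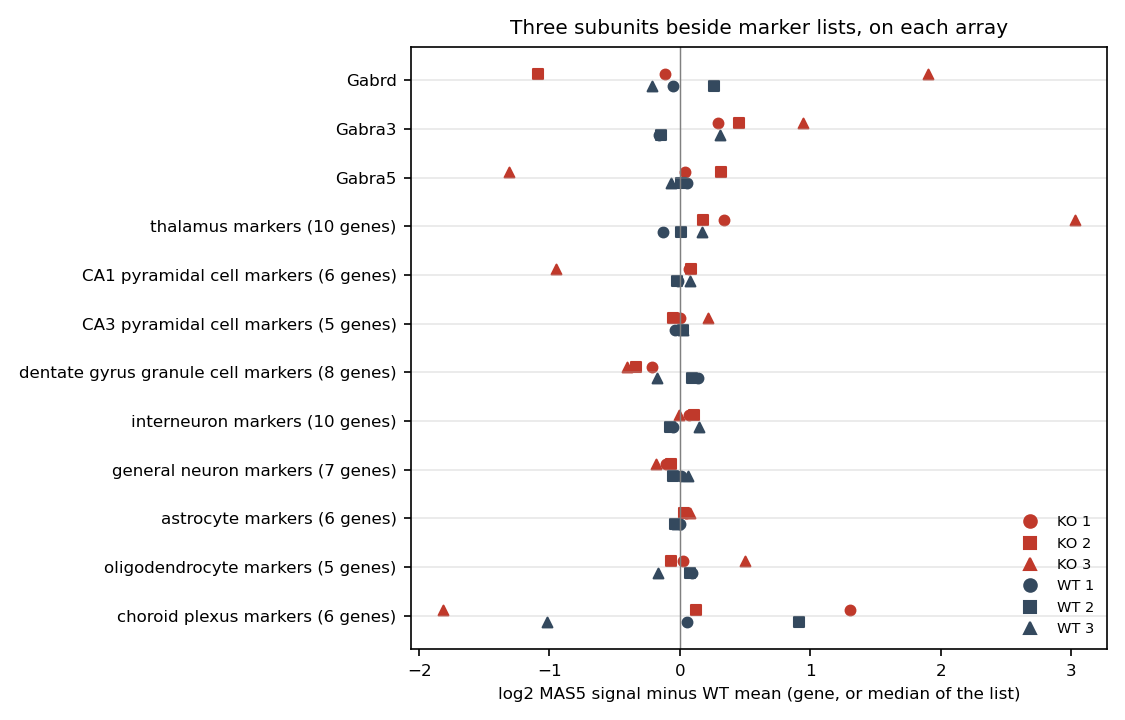
Log2 MAS5 signal minus the WT mean (horizontal axis) for Gabrd, Gabra3, Gabra5 and, as a median over genes, for marker lists of regions and cell types, with 1 point per array and KO points above WT points in each row. KO 3 (red triangles) lies at 1.90 for Gabrd, at -1.31 for Gabra5, at 3.03 for the thalamus list and at -0.95 for the CA1 list.

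No GABA-A subunit probe set passed an adjusted p of 0.05 between KO and WT hippocampus. Of the 21 probe sets, 17 passed the filter on dim signals (above the 40th percentile of an array on at least 3 of 6 arrays), with each of the 7 genes represented, and 0 of these 17 were called by limma, with adjusted p from 0.782 to 0.999. Across all 27408 probe sets tested 0.0219% were called, a rate at which 17 probe sets would seldom hold a call. At an unadjusted p under 0.05 stood 1 member, Gabra3, against 6.18% of all probe sets. The KO values of 1 member, a Gabrb2 probe set, lay wholly above its WT values, against 15.2% of all probe sets without overlap in either direction. No member differed by 1.5-fold or more, against 7.66% of all. In this bulk tissue fewer cells that carry a subunit and less of its RNA per cell cannot be told apart.

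The sizes of the differences were small for most members. KO minus WT lay within 0.1 of 0 on the log2 scale for 8 of the 17 and within 0.3 for 14. It was above 0 for 11 and below 0 for 6, with a median of 0.05, beside -0.01 over all probe sets tested. Without KO 3 the median was 0.04, again 0 members were called and 1 had an unadjusted p under 0.05, although over all probe sets the called share was then 0.234%. KO 3 gave the highest or the lowest of the 6 values for 11 of the 17, as it did for 68.9% of all probe sets tested.

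**Figure D2:**
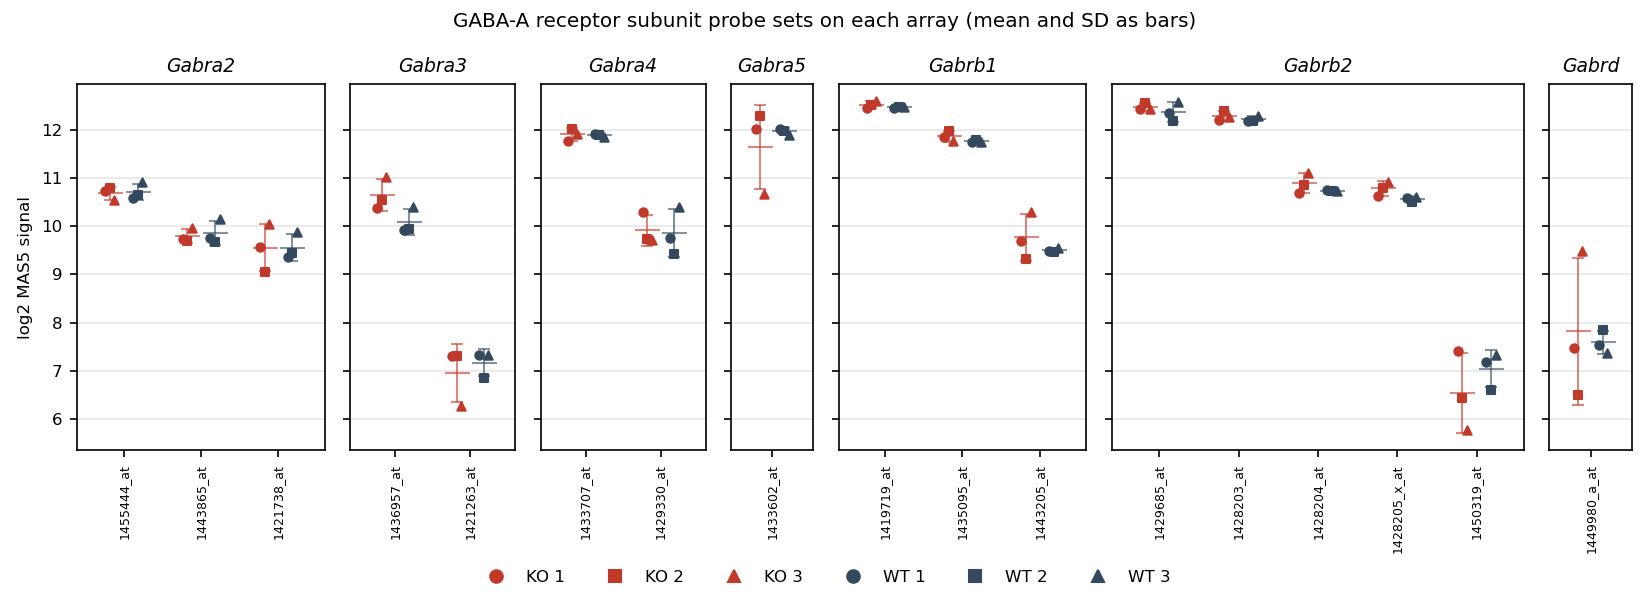
Log2 MAS5 signal of the 17 tested subunit probe sets on the 3 KO arrays (red, left in each pair) and the 3 WT arrays (blue, right), 1 point per array, with the mean and SD as bars. Gabra5 and Gabrd each have a KO 3 value far from the other arrays, at 10.66 and 9.49, and the groups overlap for every probe set shown except Gabrb2 1428205_x_at.

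Gabra2, the main alpha subunit of many synapses on hippocampal principal cells, did not differ beyond the spread between arrays in any tested probe set. Its brightest probe set (1455444_at) gave 10.73, 10.78 and 10.54 on the KO arrays and 10.59, 10.64 and 10.91 on the WT arrays. The WT range enclosed all but the lowest KO value, and the difference was -0.03 ± 0.13 (SE, n = 3 each, 95% interval -0.34 to 0.28, limma adjusted p = 0.969), or 0.04 without KO 3. A second probe set (1443865_at) differed by -0.07, or -0.15 without KO 3, and another (1421738_at) by 0.00, or -0.25 without KO 3, both with overlapping groups. The remaining 2 of the 5 Gabra2 probe sets (1449807_x_at and 1420299_at), which share a design sequence, were dim and were not tested.

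Gabra3, an X-linked alpha subunit with a more restricted distribution in the brain, had the smallest p-value of the members. Probe set 1436957_at gave 10.38, 10.54 and 11.03 on the KO arrays and 9.92, 9.94 and 10.39 on the WT arrays. WT 3 read just above KO 1, so the groups overlapped by that pair alone. The KO mean of 10.65 ± 0.34 stood against a WT mean of 10.09 ± 0.26 (SD, n = 3 each), 1.48-fold, a difference of 0.56 ± 0.21 (SE, 95% interval 0.07 to 1.06). The unadjusted p of 0.0307 became 0.782 after Benjamini-Hochberg adjustment over all probe sets in limma, so the difference was not called. KO 3, the array with the high thalamus markers, gave the highest Gabra3 value. Without it the difference was 0.37 (95% interval 0.03 to 0.72, limma adjusted p = 0.368). The second Gabra3 probe set (1421263_at) did not show this pattern. It gave 7.30, 7.30 and 6.26 on the KO arrays and 7.33, 6.84 and 7.33 on the WT arrays, a difference of -0.21, or 0.13 without KO 3. Across the 6 arrays the pair of probe sets correlated at r = -0.57, given as a description.

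The beta subunits, which every common receptor needs and which help to form the GABA site, differed little from WT in their bright probe sets. Gabrb1 (1419719_at) gave 12.46, 12.51 and 12.60 on the KO arrays and 12.45, 12.48 and 12.48 on the WT arrays, a difference of 0.05, or 0.02 without KO 3. A second Gabrb1 probe set (1435095_at) differed by 0.10. The dimmest tested (1443205_at) gave 9.69, 9.31 and 10.29 on the KO arrays and 9.49, 9.46 and 9.56 on the WT arrays. Its difference of 0.26 came with KO 3 and was 0.00 without that array. The remaining Gabrb1 probe set (1443834_at) was too dim to be tested.

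Gabrb2 was covered by 5 tested probe sets, 3 of them designed on the same sequence and so not independent. The brightest (1429685_at) gave 12.43, 12.56 and 12.43 on the KO arrays and 12.35, 12.18 and 12.58 on the WT arrays, a difference of 0.10 with overlapping groups. Probe set 1428205_x_at, whose suffix marks probes that may also bind other transcripts, gave 10.63, 10.79 and 10.92 on the KO arrays and 10.59, 10.51 and 10.61 on the WT arrays. This was the single member whose groups did not overlap, by a margin that separated KO 1 from WT 3 only narrowly. Its difference was 0.21 (95% interval -0.07 to 0.49, limma adjusted p = 0.788), and probe sets 1428203_at and 1428204_at from the same sequence differed by 0.07 and 0.15. Without KO 3 the difference was 0.14 for 1428205_x_at and 0.04 for 1428204_at. The dimmest Gabrb2 probe set (1450319_at) gave 7.42, 6.44 and 5.76 on the KO arrays and 7.19, 6.60 and 7.33 on the WT arrays. Its difference of -0.50 had a 95% interval of -1.53 to 0.52, the widest among the Gabrb2 probe sets, and was -0.11 without KO 3.

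**Figure D3:**
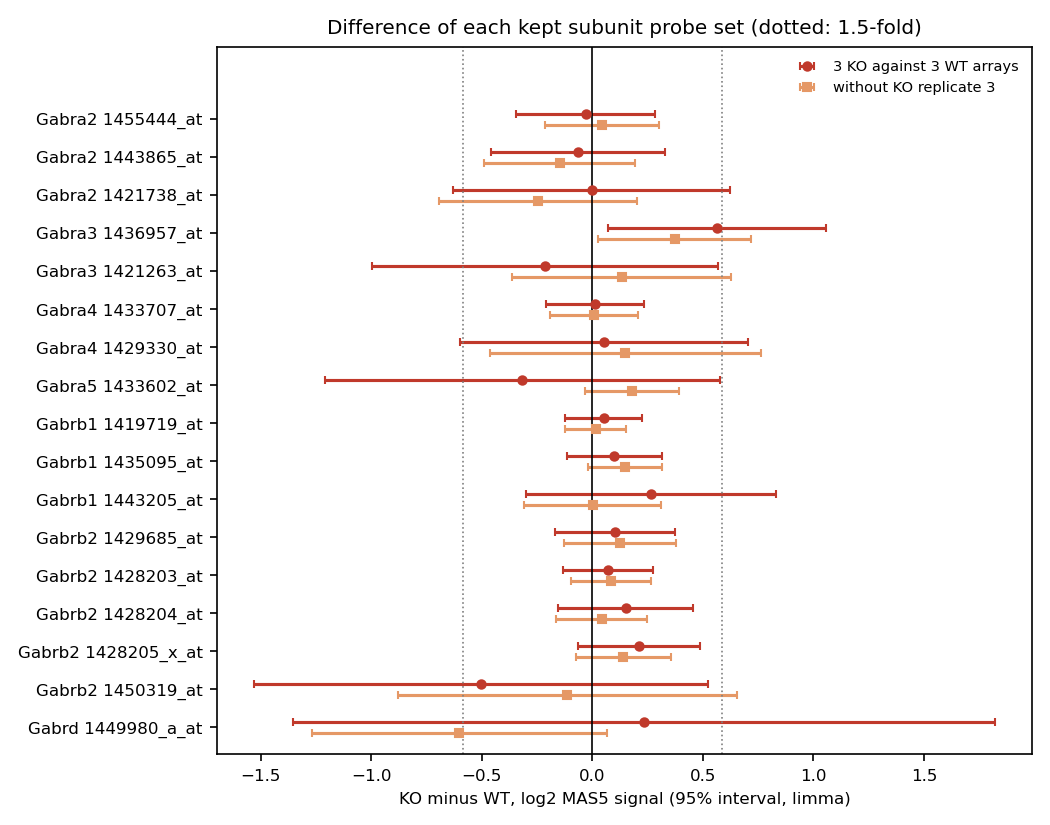
KO minus WT log2 MAS5 signal of the 17 tested subunit probe sets, with 95% intervals from limma, over all 6 arrays (circles) and without KO replicate 3 (squares), and dotted lines at 1.5-fold. Of the intervals over 6 arrays only that of Gabra3 1436957_at leaves out 0. Those of Gabra5 and Gabrd narrow without KO 3 but still include 0, while the differences change sign.

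Of the extrasynaptic members, Gabra4 showed a narrow interval around 0 in its brightest probe set and a wider one in the other. Its brightest probe set (1433707_at) gave 11.77, 12.02 and 11.91 on the KO arrays and 11.91, 11.90 and 11.86 on the WT arrays. The difference was 0.01 ± 0.095 (SE, 95% interval -0.21 to 0.23, limma adjusted p = 0.983), which for this probe set leaves out changes near 1.5-fold in either direction. Without KO 3 it was 0.0069. The second probe set (1429330_at) gave 10.29, 9.73 and 9.72 on the KO arrays and 9.75, 9.42 and 10.40 on the WT arrays, a difference of 0.05 with overlapping groups, or 0.15 without KO 3. Its 95% interval of -0.60 to 0.70 includes changes of 1.5-fold in either direction. Across the 6 arrays this pair of probe sets correlated at r = -0.62, given as a description.

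Gabra5, the alpha subunit of tonic inhibition in pyramidal cells, was read by a single probe set (1433602_at), and 1 KO array decided its mean. The KO arrays gave 12.01, 12.28 and 10.66, and the WT arrays 12.03, 11.98 and 11.90. KO 1 lay inside the narrow WT range and KO 2 above it, while KO 3 lay below it, at -1.31 from the WT mean. The means were 11.65 ± 0.87 in KO and 11.97 ± 0.065 in WT (SD, n = 3 each), a difference of -0.32 (95% interval -1.21 to 0.58, limma adjusted p = 0.862). Without KO 3 it was 0.18 with an interval of -0.03 to 0.39 and an adjusted p of 0.453. On KO 3 the CA1 marker list was also low, at a median of -0.95, although its genes ran from -2.56 (Ccn3) to 0.70 (Wfs1). The CA3 pyramidal cell list had a median of 0.22 there, with genes from -1.35 (Nectin3) to 0.58 (Bok), and the thalamus list was high. The part of these lists in the Gabra5 value was not tested.

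Gabrd, the delta subunit that takes the place of gamma in tonic receptors, varied more between KO arrays than any other tested member. Probe set 1449980_a_at, whose suffix marks a design shared by transcript variants of the gene, gave 7.47, 6.50 and 9.49 on the KO arrays and 7.54, 7.85 and 7.38 on the WT arrays. The KO values lay on both sides of the WT range, with KO 2 the lowest and KO 3 the highest of all 6 arrays. The means were 7.82 ± 1.53 in KO and 7.59 ± 0.24 in WT (SD, n = 3 each), a difference of 0.23 with a 95% interval of -1.35 to 1.82 (limma adjusted p = 0.947). Without KO 3 the difference turned to -0.60 (95% interval -1.27 to 0.07, adjusted p = 0.431). KO 3, at 1.90 above the WT mean for Gabrd, was the array with the summed thalamus signal of 38570. The dentate granule cell list had medians of -0.21, -0.34 and -0.41 on the KO arrays and -0.17 to 0.14 on the WT arrays. On KO 3 its genes ran from -1.40 (Dsp) to 0.24 (Pitpnm2). The part of these lists in the Gabrd values was not tested. A second Gabrd probe set (1457763_at) was too dim to be tested.

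The synaptic and extrasynaptic members were set against each other within each array, with the brightest probe set of a gene expressed relative to its WT mean. The median of Gabra4, Gabra5 and Gabrd was -0.12, 0.13 and 0.02 on the KO arrays and 0.02, 0.01 and -0.07 on the WT arrays. The median of Gabra2, Gabra3, Gabrb1 and Gabrb2 was 0.04, 0.13 and 0.09 on the KO arrays and -0.07, -0.11 and 0.20 on the WT arrays. Extrasynaptic minus synaptic was therefore -0.16, 0.00 and -0.07 on the KO arrays, all within the WT values of 0.09, 0.12 and -0.27. The KO average minus the WT average was -0.05 on the log2 scale, less than the range of 0.39 among the WT arrays, and no test was made because the members were chosen with results known. It was -0.24 with alpha subunits alone, without Gabrb1 and Gabrb2, -0.18 without WT 3, -0.09 without KO 2, -0.01 without KO 1 and 0.03 without WT 2, so neither its size nor its sign was stable. With 3 arrays a group, an exact two-sided permutation test could not go below p = 0.1.

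The extrasynaptic members nevertheless moved apart from one another on single KO arrays. The range among the 3 extrasynaptic members was 3.21 on KO 3, where Gabrd was high and Gabra5 low, and 1.40 on KO 2, where Gabrd was low. On KO 1 it was 0.16, and on the WT arrays it was 0.11, 0.25 and 0.18. A median over these members thus hid opposite deviations on the same array.

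**Figure D4:**
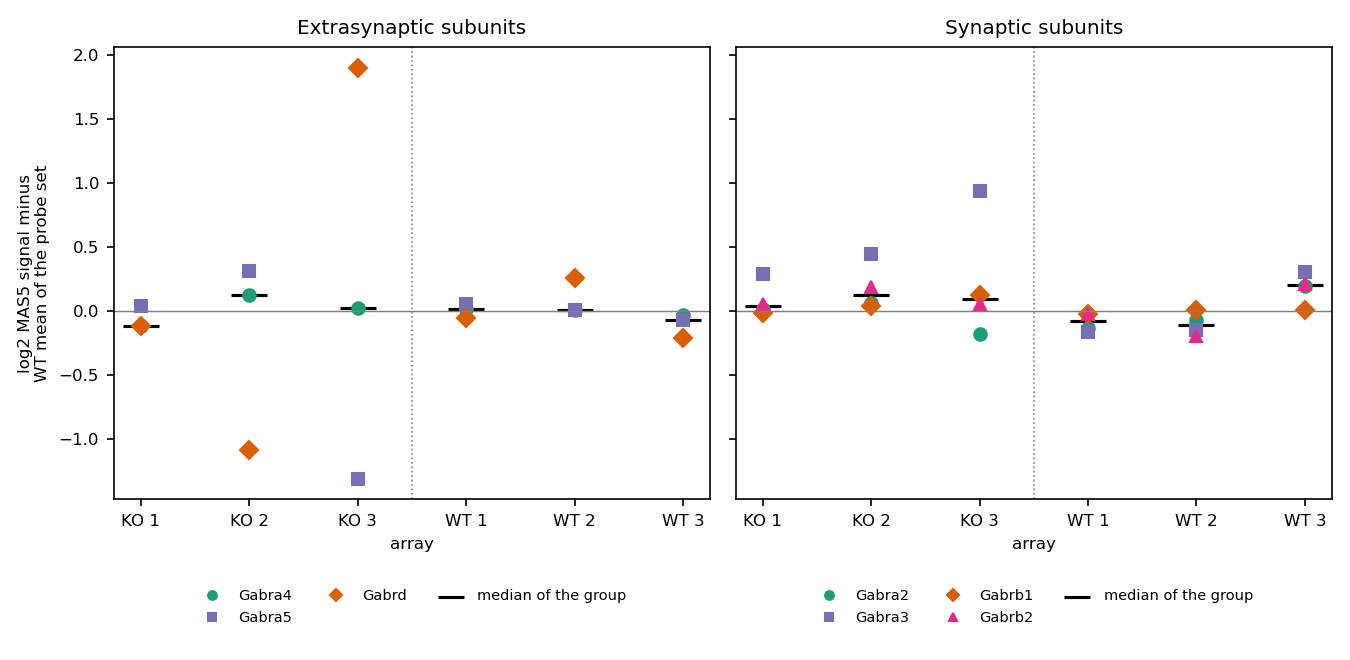
Log2 MAS5 signal of each subunit's brightest probe set minus its WT mean, for the extrasynaptic (left) and synaptic (right) members on each array, with the median of the members as a bar. The extrasynaptic medians stay between -0.12 and 0.13, while Gabrd and Gabra5 lie at 1.90 and -1.31 on KO 3.

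For the members whose brightest probe set spanned more than 1 on the log2 scale, the genes with the most similar pattern over the 6 arrays were sought. Likeness was the root mean square difference of log2 signals after each gene was centred on its mean, over 12903 genes with the members left out. Gabra3 was followed most closely by Btbd11 (0.045), Aard (0.081) and Mir124-2hg (0.083). Gabra5 was followed by Ephx4 (0.044), 3110039M20Rik (0.051) and Cemip (0.060), each of which had its lowest value on KO 3. Gabrd was followed less closely, by Plekhm2 (0.185), Endou (0.191) and Synm (0.197), with the highest value of each on KO 3 and the lowest on KO 2. These likenesses are over 6 arrays of the same tissue and share the KO 3 array, so no test was made.

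Of 8 other GABA-A subunit genes examined, 4 passed the filter (Gabrg1, Gabrg3, Gabrp and Gabrr2), and none was called in the fit across genes, where 0.062% of 12903 genes were. Gabrg1, a gamma subunit encoded beside Gabra2 on chromosome 5, gave 9.61, 9.83 and 10.48 on the KO arrays and 9.29, 9.40 and 9.26 on the WT arrays (1460408_at). The KO values lay wholly above the WT values, and the difference was 0.66, or 0.41 without KO 3, with an adjusted p of 0.601 in the fit across genes. Its second probe set (1427227_at) gave 8.12, 8.40 and 8.32 on the KO arrays and 7.89, 7.83 and 7.96 on the WT arrays, also without overlap, a difference of 0.39. Of all probe sets tested, 15.2% had groups without overlap in either direction. Gabrg3 differed by 0.28 and by -0.02 without KO 3, and Gabrr2, a rho subunit, by -0.27 and by -0.45 without KO 3. Gabrr2 was dim, at 5.75 to 6.39 on the KO arrays and 5.87 to 6.58 on the WT arrays. The filter levels of the arrays were 5.73 to 6.05.

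Genes that place the receptors at the membrane were read next. Of 23 genes for anchoring and trafficking of GABA-A receptors, 22 were measured and 0 were called, against 0.062% of all genes. In KO 5 were higher and 17 lower, beside 6697 higher and 6206 lower of all genes. The median of the 22 was -0.09 with KO 3 and -0.12 without it, beside 0.01 and 0.03 over all genes. For 3 of the 22 the KO values lay wholly below the WT values, beside 15.2% of all probe sets without overlap in either direction. At an unadjusted p under 0.05 stood 1 of the 22, Plcl1 (-0.39), which encodes a protein that binds receptor and phosphatase, against 7.48% of all genes. Mdga1, a synaptic organiser protein, differed by -0.64 and Slitrk3, an adhesion protein of inhibitory synapses, by -0.55, neither past the test. Without KO 3 these differences were -0.44 and -0.29. Mdga1 was dim, at 5.83, 5.69 and 5.15 on the KO arrays, each below the filter level of its array. It read 6.23, 6.34 and 6.02 on the WT arrays and so passed the filter through its WT values alone.

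Genes that make, carry and break down GABA were measured for 9 of 11 listed. None was called, against 0.062% of all genes. In KO 7 were higher and 2 lower, beside 6697 higher and 6206 lower of all genes. The median of 0.32 shrank to 0.05 without KO 3. At an unadjusted p under 0.05 in limma stood 2 of the 9, against 7.48% of all genes. For 3 of the 9 the KO values lay wholly above the WT values, beside 15.2% of all probe sets without overlap in either direction. Slc38a1, a glutamine transporter of neurons, differed by 0.40, Abat, the enzyme that breaks GABA down, by 0.32, and Slc32a1, the vesicular GABA transporter, by 0.78. Without KO 3 these differences were 0.23, 0.17 and 0.20. The 10 interneuron markers had medians of 0.07, 0.11 and 0.00 on the KO arrays and -0.05, -0.08 and 0.15 on the WT arrays. The KO 3 median hid opposite deviations, among them 2.09 (Dlx1) and 1.93 (Slc32a1), but -1.87 (Vip) and -0.96 (Pvalb). On average 6 were higher and 4 lower in KO, none called. The KO values of 3 (Dlx1, Dlx2 and Slc32a1) lay wholly above the WT values, beside 15.2% of all probe sets without overlap in either direction.

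The chloride transporters and their kinases, which set the direction of the current through the receptor, had a median of -0.01 over 7 genes, or 0.00 without KO 3, none called. Stk39, a kinase of these transporters, differed by 0.41, Wnk3 by 0.17 and Wnk1 by -0.05, and without KO 3 the values were 0.65, 0.29 and -0.01. Of 8 genes of the GABA-B receptor, the slower receptor that acts through G proteins, 6 were measured and none was called, with a median of 0.01, or -0.03 without KO 3. Kctd8, an auxiliary subunit, differed by 0.68 (limma adjusted p = 0.542) and by 0.63 without KO 3. Kctd16, a related subunit, differed by -0.64, and Kcnj6, a potassium channel opened by the receptor, by -0.45. Without KO 3 Kctd16 differed by -0.26 and Kcnj6 by 0.05.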

How the data were processed

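Hippocampal RNA of 3 KO and 3 WT samples was hybridised to Affymetrix arrays. The authors deposited log2 signals for 45037 probe sets, made with MAS5 and affy according to the submitters' processing notes, which give no version. GeneSpring and removal of Absent calls are stated in the methods. MAS5 scales each array to a common mean and subtracts mismatch signal, so that dim probe sets scatter widely on the log2 scale.

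A probe set was kept if 3 or more of the 6 arrays read it above their 40th percentile (27408), in place of detection calls, which were not used here. A gene table pairs 34945 probe sets with 1 symbol, gives several for 932 and does not list 9160. The brightest kept probe set stood for each of 12903 genes. The difference KO minus WT came from lmFit and eBayes (with a variance trend) of limma 3.58.1, run under R 4.3.3, with p-values adjusted by Benjamini-Hochberg over all probe sets or all genes. The fit was tested on simulated data.

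All member probe sets are named, and of each other list of GABA-related genes up to 3 genes with the smallest p. Of the region and cell type markers only some genes are named. The members and lists were chosen with earlier results of these data known. The alternatives were other filters, quantile normalization, median centring, an offset of 50 signal units, no variance trend, array weights, a replicate block and each array left out. The number of arrays limits the precision.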

Additional observations from a re-analysis of the deposited data

How the results depend on the processing

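No subunit probe set was called under the alternatives, except in a fit with REML array weights that did not converge. Over all probe sets, 6 were called, 1 without a filter, 10 with the offset, 0 without the variance trend, 307 with array weights and 2 with the replicate block, and 0 to 64 with each array left out. Over genes, 8 were called, 5 after median centring, 0 without the trend, 115 with array weights, 4 with the replicate block and 0 to 53 with each array left out. The deviations of same-numbered samples correlated at -0.02, 0.07 and 0.10, and not every sample correlated best with its own number. With so few arrays in a group, these correlations cannot decide whether the numbers pair the samples. Extrasynaptic minus synaptic was -0.05 (KO minus WT), -0.24 for alpha subunits alone and -0.18 to 0.025 with each array left out. Signs turned for Gabra4 after median centring (-0.0046) and, with array weights, for Gabra2 (0.042), Gabra4 (-0.088), Gabra5 (0.012) and Gabrd (-0.16). With each array left out, the differences were -0.094 to 0.067 for Gabra2, 0.37 to 0.72 for Gabra3, -0.047 to 0.078 for Gabra4, -0.63 to 0.18 for Gabra5, 0.02 to 0.08 for Gabrb1, 0.01 to 0.21 for Gabrb2 and -0.60 to 0.89 for Gabrd, and 1 to 6 member probe sets had groups without overlap. That number was 1 with all arrays, 2 after quantile normalization and 0 after median centring. The cause of these shifts was not tested. The REML estimate put 96.8% of all weight on KO 1 and called 7432 probe sets. Among them was the dimmer Gabra4 probe set 1429330_at (0.46, adjusted p = 0.0365 in limma), whereas the Gabra4 values above are of the brightest one. A Gabra3 probe set was also called (0.33, adjusted p = 0.0223 in limma). Weights were therefore estimated gene by gene for the values above.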
